A study of Mus musculus with 36 samples.

Results

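Cytosolic ribosomal protein genes were examined in mouse pancreatic fibroblasts that had grown alone or beside tumour cells. Members were the rows of the count table whose symbol began with Rpl or Rps and a digit, or was Rplp0, Rplp1, Rplp2 or Rpsa, and whose mean count over the 36 libraries was at least 100. Symbols containing -ps and the Rps6k kinases were left out. The rule found 83 members among 39017 genes, of 90 symbols that matched before the minimum on counts. These held 45 proteins of the large subunit, 31 of the small subunit, and 6 relatives or copies that share the naming (Rpl22l1, Rpl36al, Rpl7l1, Rps27l, Rps19bp1 and Rps3a3). The remaining row, with the symbol Rpl24, carried the Ensembl identifier of another gene, the zinc finger gene Zbtb11, and is described apart. It stays among the 83 in every count, share and median over members.

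The cytosolic ribosome translates nuclear-encoded mRNA into protein and is built from ribosomal RNA and a fixed set of proteins, usually 1 copy of each per ribosome. The genes of these proteins are dispersed in the genome, are among the most highly transcribed genes of growing cells, and typically begin their mRNA with a C followed by pyrimidines, the 5′ terminal oligopyrimidine (TOP) tract. That tract places their translation under the kinase mTORC1 and the binding protein LARP1, so that mRNA level and protein output can differ. Fibroblasts in pancreatic tumours make much of the extracellular matrix, a task with a high demand for translation.

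Poly(A)-selected, strand-specific RNA came from C57BL/6 fibroblasts in 9 groups of 4 libraries. One group was a mono-culture, and 7 groups had been kept for 48 h in direct co-culture with a tumour sub-clone, named E, H, K, M, N, T or V, that carried GFP, after which sorting on GFP took the tumour cells away. The ninth group was co-cultured with KPC1, a name that the labels do not explain, and each partner was a single line or clone. No label ties the 4 libraries of a group to separate cultures, so p-values measure the spread between these libraries, which may be technical.

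Library totals ran from 12532100 to 21985500 counts. The fibroblast label was checked with 12 fibroblast genes, whose summed level was between 19147 and 44315 CPM (counts scaled to library size, with TMM factors) in every library. An epithelial list of 12 genes, which marks tumour cells, summed to 1.064 to 1.81 CPM in the mono-culture and to 20.01 to 866 CPM in the co-cultures. Its part in the results was not tested. The libraries numbered 4 stood apart in the members: in each co-culture, replicate 4 was the highest library for 57 to 81 of the 83 members, against 24% to 32% of all genes tested. In the mono-culture, replicate 4 was the lowest for 78 of 83. In those 8 co-culture libraries the mean length of a gene weighted by its counts was 3756 to 3981 bases, against 3937 to 4326 in replicates 1 to 3. In the mono-culture it was 4105 bases in replicate 4, against 3935 to 3960 in replicates 1 to 3. Mitochondrially encoded genes took 2.16% of counts in mono-culture replicate 4, against 3.87% to 4.31% in its replicates 1 to 3. In the co-cultures that share was 3.01% to 4.74% in replicate 4 and 3.06% to 4.45% in replicates 1 to 3. The main results are therefore given with all libraries and also without the 9 libraries numbered 4, a choice made after seeing the data. The cause of the difference was not tested.

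The start of the transcript is the feature by which these genes are best known, and it was read from RefSeq windows on GRCm38.p6. Of the 82 correctly named members 61 matched, with 72 start sites. The stretches shown run from 40 bases before to 20 bases after the listed start, on the gene's own strand, with a run of at least 5 pyrimidines starting with C near the start in capitals. Rplp2 (chr7:141447611-141447670, +), Rps27 (chr3:90213629-90213688, −), Rps2 (chr17:24720023-24720082, +) and Rpl39 (chrX:37085203-37085262, −) show 4 such runs. Rplp0 (chr5:115559427-115559486, +), Rps28 (chr17:33824543-33824602, −) and Rpl7l1 (chr17:46782637-46782696, −) are shown because they lacked one within the searched distance and, in KPC1 co-culture, did not pass the test or were lower. Rps27 and Rpl39, which hold a run, did not pass there either: Rps27 was at 153 to 211 CPM in the mono-culture and 179 to 305 CPM with KPC1, and Rpl39 at 87.6 to 132 CPM and 104 to 192 CPM. The examples thus set up no contrast between genes with and without a run, and whether a run went with a rise was not tested.
Rplp2: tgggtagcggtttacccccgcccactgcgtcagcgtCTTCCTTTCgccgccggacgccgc
Rps27: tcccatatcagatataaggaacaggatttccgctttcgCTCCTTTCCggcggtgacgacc
Rps2: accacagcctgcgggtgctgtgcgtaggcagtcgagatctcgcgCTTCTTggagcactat
Rpl39: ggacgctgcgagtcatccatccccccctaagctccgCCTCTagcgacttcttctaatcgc
Rplp0: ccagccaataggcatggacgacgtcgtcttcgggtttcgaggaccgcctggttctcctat
Rps28: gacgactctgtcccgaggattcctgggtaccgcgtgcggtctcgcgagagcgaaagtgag
Rpl7l1: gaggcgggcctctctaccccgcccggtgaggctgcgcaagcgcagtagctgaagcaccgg

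Such a run began within 5 bases of the start in 43.1% of the members' windows, against 19.5% of the windows of all genes tested and 18.3% of all windows in the table. Beginning exactly at the start, it stood in 18.1% of the members' windows and in 2.33% of those of the genes tested. RefSeq starts are not measured in these cells, so a run a few bases away may still be the transcript's first bases. Within the 300 bases of each window, searched on both strands, the ETS core CCGGAAG occurred in 36.1% of members' windows, against 16.4% for the genes tested and 8.86% for all windows. The YY1 core AAGATGGC occurred in 11.1%, against 4.18% and 2.75%. The TATA box TATAAA stood in 9.72%, against 7.19% and 13.6%, and the GC box GGGCGG in 63.9%, against 61.9% and 35.7%. The members' windows thus held TOP-like runs and the ETS and YY1 cores at a higher share than both backgrounds. Their GC box share was near that of the genes tested and above that of all windows. These shares describe sequence and not binding.

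Levels between genes were compared per length, as RPKM deposited by the authors. Rplp1, an acidic protein of the ribosomal stalk, had the highest mean at 2383 RPKM, followed by the small-subunit protein Rps12 at 1967 and the stalk base Rplp0 at 1837. The lowest were the row named Rpl24 at 10.3 RPKM, Rpl22l1, a paralogue of Rpl22, at 14.6, and Rps19bp1, a protein that binds Rps19, at 25.4. The named relatives lay below their partners: Rpl7l1 had 29.2 RPKM against 385 for Rpl7, Rpl36al 52.6 against 253 for Rpl36a, and Rps27l 67.3 against 571 for Rps27. Just inside the minimum on counts was Rpl22l1, with a mean count of 145.7, and just outside was Rps3a2 with 51.25. The testis-associated paralogues Rpl10l and Rpl39l had mean counts of 0 and 0.0556, and the muscle-associated Rpl3l had 0.361.

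As a group, the members took 2.89% to 6.55% of all counts in a library. The mono-culture held 4.02%, 4.03%, 4.22% and 3.38% in replicates 1 to 4, a mean of 3.91% ± 0.366 (SD, n = 4). The KPC1 co-culture held 4.64%, 4.64%, 4.70% and 6.55% (5.13% ± 0.948, SD, n = 4), and all 4 libraries lay above all 4 of the mono-culture. Clone K held 2.93%, 2.89%, 3.50% and 4.42% (3.44% ± 0.714, SD, n = 4), with replicates 1 and 2 below every other library. The high replicate 4 did not change the place of these co-cultures. Without replicate 4, the 3 KPC1 libraries (4.64% to 4.70%) lay above all 21 libraries of the 7 clones (2.89% to 4.42%), and the 3 clone K libraries (2.89% to 3.50%) lay below the other 24 (3.51% to 4.70%). Among the 8 co-culture libraries numbered 4, KPC1 was the highest and clone K the lowest.

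The other clones were less far apart. Clone N held 4.04%, 4.28%, 4.42% and 6.20% (4.74% ± 0.990, SD, n = 4), so that its high mean rested on replicate 4. Clone H held 3.66%, 3.78%, 4.07% and 5.37% (4.22% ± 0.785, SD, n = 4), and clone T 4.10%, 4.31%, 4.19% and 5.08% (4.42% ± 0.449, SD, n = 4). Means of clones E, M and V were 4.11% ± 0.342, 4.11% ± 0.556 and 4.07% ± 0.375 (SD, n = 4), each within 1 SD of the mono-culture. Both subunits moved together: the ratio of summed large-subunit to small-subunit CPM stayed between 1.40 and 1.54 in all 36 libraries. In bulk RNA, a larger share of cells rich in these mRNAs and more of them per cell cannot be told apart.

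**Figure D1:**
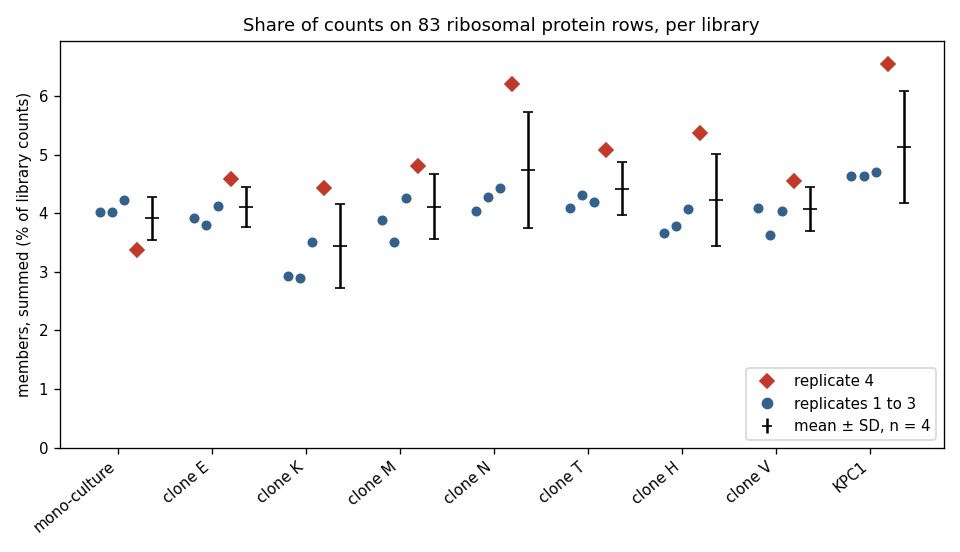
Share of all counts taken by the 83 members (y axis, percent) in each of the 36 libraries by group (x axis), with replicates 1 to 3 as points, replicate 4 as a diamond, and the mean and SD of each group. Replicate 4 is the highest library in every co-culture and the lowest in the mono-culture, and KPC1 lies highest and clone K lowest among the libraries numbered 1 to 3.

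The first comparison asked how contact with KPC1 went with the members' levels, against fibroblasts alone. Members rose broadly in KPC1 co-culture: 63 of 83 were higher by edgeR's quasi-likelihood test at an adjusted p under 0.05, where 30.5% of all genes tested were called higher. Only Rpl7l1 was lower, against 28.5% of all genes. The median log2 fold change over members was 0.50, beside a median near 0 over all genes. Of the large subunit 35 of 45 rose (median 0.50) and of the small subunit 23 of 31 (median 0.51), so neither subunit led. Without the libraries numbered 4 the median was 0.26 and 47 of 83 were higher, against 29.3% of all genes.

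Rpl8, a large-subunit protein close to the peptidyl transferase centre, showed the clearest rise of a core member. It lies at chr15:76904078-76906314 on the plus strand (GRCm38, the same sequence as mm10), a gene of 5 exon blocks. In the mono-culture its level was 540, 601, 610 and 493 CPM in replicates 1 to 4, and in KPC1 co-culture it was 1084, 949, 1001 and 1319 CPM. The groups did not overlap, and the log2 fold change was 0.96 (SE 0.14, adjusted p = 1.4e-06). Without replicate 4 it was 0.78 (SE 0.10, adjusted p = 7.1e-07). Rps2, a small-subunit protein near the mRNA entry channel whose start is shown above, was at 1012, 1328, 1241 and 1039 CPM in the mono-culture. In KPC1 co-culture it was at 1640, 1376, 1604 and 1573 CPM, all above the mono-culture (log2 fold change 0.42, SE 0.10, adjusted p = 0.00082), or 0.36 (SE 0.12, adjusted p = 0.013) without the libraries numbered 4. Replicate 4 did not stand out for Rps2 in either group.

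Among the other core members, Rpl3, which reaches the peptidyl transferase centre, was at 667, 656, 739 and 528 CPM in the mono-culture and at 1007, 907, 822 and 1200 CPM in KPC1 co-culture. Its groups did not overlap either (log2 fold change 0.60, SE 0.15, adjusted p = 0.00083), and the value was 0.40 (SE 0.10, adjusted p = 0.0020) without the libraries numbered 4. Rpl5 and Rpl11 travel with the 5S ribosomal RNA and, when free, restrain Mdm2 and so stabilise p53. Rpl5 rose by 0.64 on the log2 scale (SE 0.17, adjusted p = 0.0015), from 626 to 770 CPM in the mono-culture to 978 to 1571 CPM, and by 0.37 (SE 0.11, adjusted p = 0.0048) without the libraries numbered 4. Rpl11 was at 313 to 404 CPM and 367 to 555 CPM, overlapping (log2 fold change 0.20, SE 0.15, adjusted p = 0.24), and its value without the libraries numbered 4 was -0.03 (adjusted p = 0.76). Whether the pair differ from each other was not tested.

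The stalk recruits the translation factors and consists of Rplp0 with copies of Rplp1 and Rplp2. Rplp2 rose by 0.48 (log2, SE 0.12, adjusted p = 0.00094), from 309, 335, 326 and 254 CPM in the mono-culture to 408, 391.5, 417 and 486 CPM in KPC1 co-culture, without overlap. Its value was 0.32 (adjusted p = 0.0028) without the libraries numbered 4. Rplp1 was called with all libraries (log2 fold change 0.28, SE 0.11, adjusted p = 0.029) but not without those numbered 4, where its value was 0.12 (SE 0.09, adjusted p = 0.23): it was at 1163, 1290, 1141 and 1037 CPM in the mono-culture and at 1249, 1330, 1360 and 1691 CPM with KPC1, where replicate 1 overlapped. Rplp0, which is often used as a reference gene, did not pass the test: it was at 2403, 2658, 2598 and 2147 CPM against 2368, 2420, 2476 and 3350 CPM (log2 fold change 0.11, SE 0.12, adjusted p = 0.40). Rpl10, a late-joining protein of the large subunit, also failed the test (log2 fold change -0.05, SE 0.16, adjusted p = 0.82), but it fell without the libraries numbered 4 (-0.31, SE 0.11, adjusted p = 0.016). Rps28, the small-subunit protein shown above without a TOP-like run, was at 444, 442, 415 and 359 CPM against 385, 410, 433 and 530 CPM, overlapping (log2 fold change 0.08, SE 0.13, adjusted p = 0.59).

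**Figure D2:**
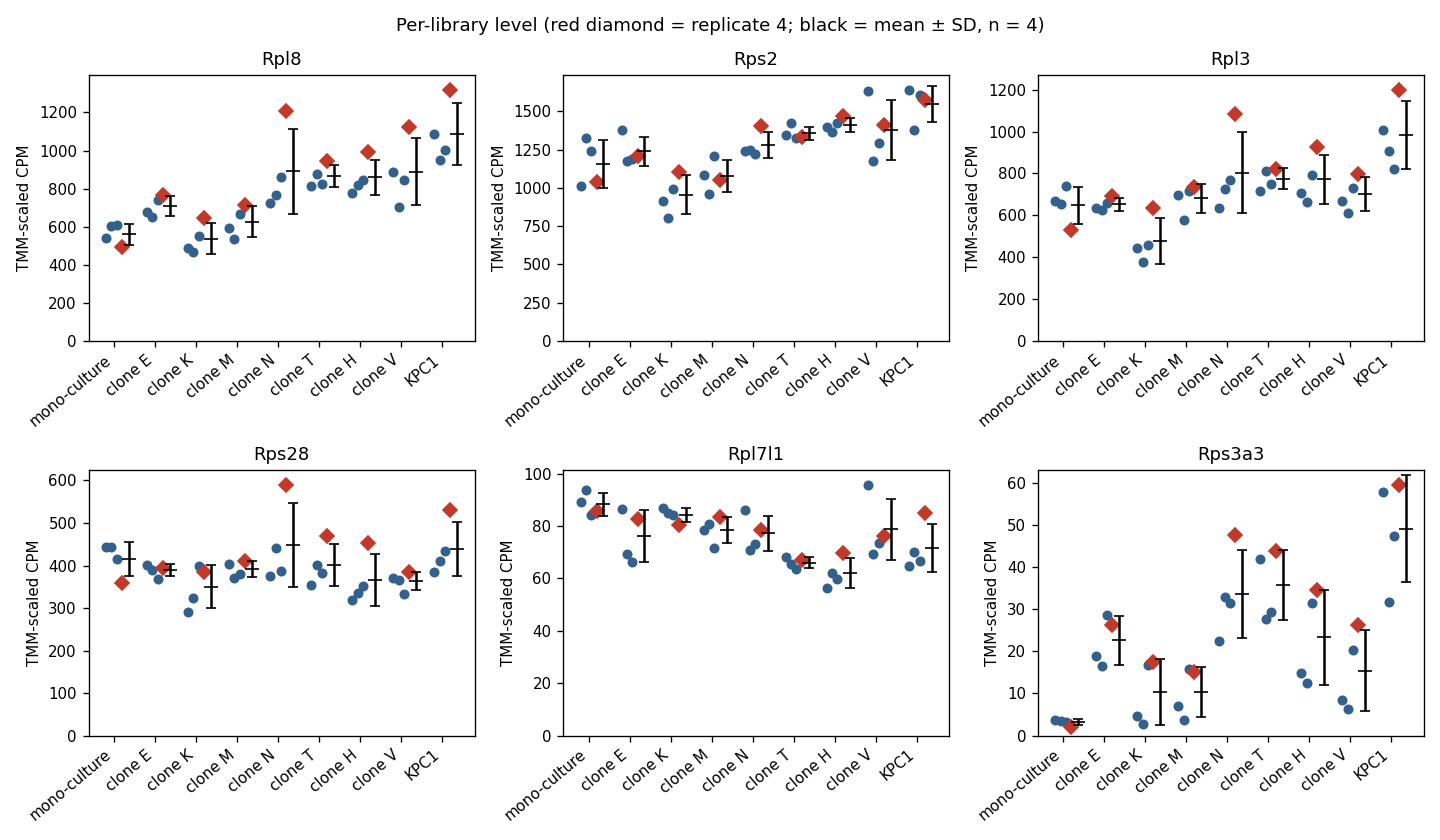
CPM scaled by TMM (y axes) of Rpl8, Rps2, Rpl3, Rps28, Rpl7l1 and Rps3a3 in each library by group (x axes), with replicate 4 as a diamond and the mean and SD of each group. Rpl8, Rps2 and Rpl3 in KPC1 co-culture lie above the mono-culture without overlap, Rps28 overlaps, and Rps3a3 is between 2.15 and 3.74 CPM in the mono-culture and between 31.8 and 59.6 CPM with KPC1.

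The second comparison set KPC1 co-culture against the mean of the 7 clones, so that both sides had been in contact with tumour cells. Here 57 of 83 members were higher, against 22.3% of all genes tested, and 0 were lower by edgeR, against 18.8%. The median log2 difference was 0.35, at 0.35 for the large subunit (34 of 45 higher) and 0.33 for the small subunit (19 of 31 higher). Without the libraries numbered 4 it was 0.30, with 65 members higher, against 22.2% of all genes. Leaving out KPC1 replicate 4 alone, which was the highest KPC1 library for 80 members, brought the count to 21 and the median to 0.21. In that fit 39.9% of all genes were called in either direction, while the 21 members were all higher.

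Rpl8 again differed, by 0.53 on the log2 scale (SE 0.10, adjusted p = 0.00017), and by 0.52 (SE 0.07, adjusted p = 1.4e-05) without the libraries numbered 4. Rpl3 differed by 0.52 (SE 0.11, adjusted p = 0.00030) and by 0.50 (SE 0.07, adjusted p = 3.35e-05). Rpl5 differed by 0.51 (SE 0.12, adjusted p = 0.0013) and by 0.41 (SE 0.08, adjusted p = 0.00030). Rps2 gave 0.33 and 0.34, and Rplp2 0.29 and 0.29. Leaving out KPC1 replicate 4 alone lowered most of these: to 0.43 for Rpl8 (adjusted p = 0.0041), 0.41 for Rpl3 (adjusted p = 0.0066), 0.31 for Rpl5 (adjusted p = 0.048) and 0.23 for Rplp2 (adjusted p = 0.067, the call lost), with Rps2 at 0.33 (adjusted p = 0.0042). Rplp0 gave a difference of 0.11 (SE 0.09, adjusted p = 0.34) and Rpl10 one of 0.01 (SE 0.12, adjusted p = 0.97). KPC1's summed epithelial markers (195 to 622 CPM) lay within the range of the clones (20.01 to 866 CPM). Of the 12 fibroblast genes 7 were lower and 3 higher in KPC1 co-culture than over the clones (median -0.73), and 7 and 1 without the libraries numbered 4 (median -0.77). Of all genes, 18.8% were lower and 22.3% higher with all libraries. The part of either list in the members' difference was not tested.

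**Figure D3:**
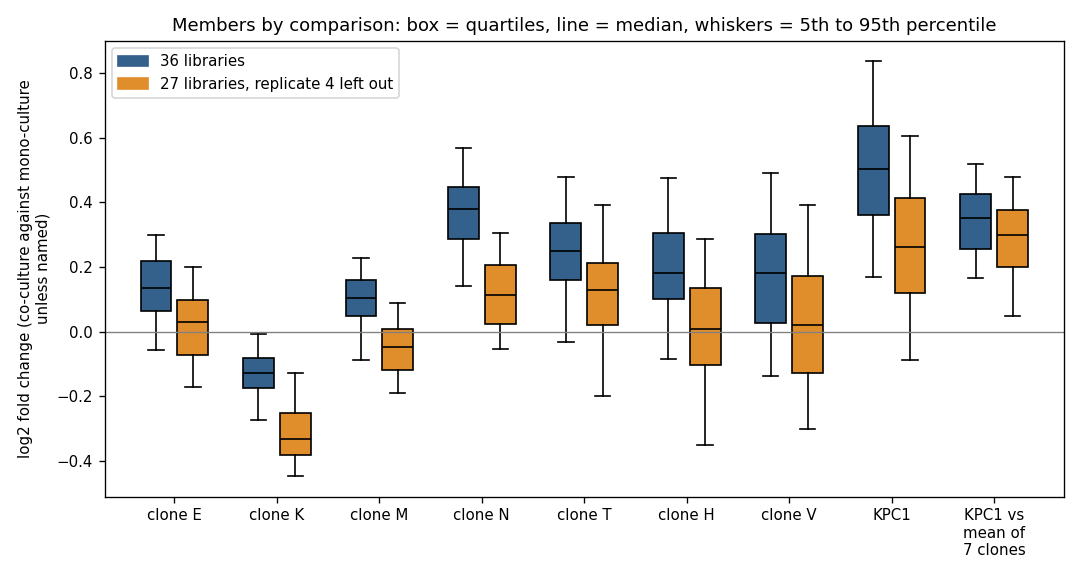
Log2 fold changes of the 83 members (y axis; box, median and quartiles) in each comparison (x axis), fitted to all 36 libraries and to the 27 without replicate 4. The KPC1 boxes stay above 0 in both fits, the clone K median is below 0 in both, and clone N falls from a median of 0.38 to 0.11.

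Against the same mono-culture, each clone gave its own values. Clone N had 41 of 83 members higher, against 19.7% of all genes tested, and 0 lower, against 19.2%, with 26 of 45 large-subunit and 13 of 31 small-subunit genes rising. Leaving out 1 library alone left 7 (clone N replicate 4), 15 (mono-culture replicate 4) or 27 (mono-culture replicate 1). In those fits 34.2% to 34.4% of all genes were called in either direction. The members' median with clone N was 0.38, but without the libraries numbered 4 it was 0.11 and 7 members were higher, against 17.2% of all genes. Rpl8 in clone N was at 723, 767, 860 and 1210 CPM, all above the mono-culture (log2 fold change 0.67, SE 0.14, adjusted p = 0.00042). Clone T had 24 higher, against 25% of all genes, and 1 lower, against 24.7%, with a median of 0.25, or 0.13 without the libraries numbered 4. Without mono-culture replicate 4, clone T replicate 2 or clone T replicate 4, 11, 14 and 12 were higher. In those fits 45.6%, 43.9% and 48.3% of all genes were called in either direction. With all libraries, the members' share called higher in clone T was near that of all genes, and the share called lower was far below it.

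Clones H and V, in which 26.4% to 29.4% of all genes changed in each direction, showed a smaller share among the members. Clone H had 18 higher, against 27.8% of all genes, and 1 lower, against 26.4%, with a median of 0.18. Clone V had 16 higher, against 29.4%, and 0 lower, against 28.9%, also with a median of 0.18. Without the libraries numbered 4 the medians were 0.009 in clone H and 0.02 in clone V. Then 8 members were higher and 9 lower in clone H, beside 27.8% and 26.4% of all genes in the fit to all libraries. In clone V 14 were then higher and 12 lower, where 56.7% of all genes were called in either direction. Leaving out mono-culture replicate 4 alone left 8 higher in each, clone H replicate 4 or mono-culture replicate 1 left 9 and 10 in clone H, and clone V replicate 1 left 9 in clone V. In either direction, 49.1% to 53.1% of all genes were called in those clone H fits and 53.8% to 54.6% in those clone V fits. The median was 0.08 in clone H without its replicate 4 and 0.10 in clone V without its replicate 4 or that of the mono-culture. Rpl8 was among those that rose in both: it was at 779, 820, 847 and 990 CPM in clone H and at 886, 701, 848 and 1123 CPM in clone V, all above the mono-culture (log2 fold changes 0.61 and 0.67, SE 0.14 each, adjusted p = 0.00059 and 0.00020). Rpl36, a small basic protein of the large subunit, was the lowest member in clone V, at 136, 128, 151 and 199 CPM against 198, 194, 216 and 162 CPM (log2 fold change -0.33, SE 0.20, adjusted p = 0.16). Without replicate 4 its log2 fold change was -0.56 (adjusted p = 0.00028).

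Clones E and M had few calls. In clone E 1 member was higher, against 16.5% of all genes, and 0 were lower, against 15.5%, with a median of 0.14, and without clone N replicate 4, which shares the estimate of the spread, 5 were higher. In that fit 32% of all genes were called in either direction. Leaving out any other single library gave 1 or 2 calls. In clone M 1 was higher, against 12.2%, and 0 lower, against 10.8%, with a median of 0.11, and without mono-culture replicate 4, clone M replicate 3 or clone M replicate 4 there was none by edgeR. The member was Rps3a3 in both. These medians were 0.03 and -0.05 without the libraries numbered 4. The lowest member in clone M was Rps27l, a p53-inducible relative of Rps27 (log2 fold change -0.30, SE 0.17, adjusted p = 0.24).

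Clone K was the clone with lower values. With all libraries 1 member was higher, against 10.4% of all genes, and 1 was lower, against 8.69%, with a median of -0.13. Without the libraries numbered 4 the median was -0.33 and 56 of 83 were lower, against 10.2% of all genes: 29 of 45 large-subunit and 27 of 31 small-subunit genes. Rpl3 was the lowest in the fit to all libraries. It was at 443, 379, 460 and 636 CPM in clone K against 667, 656, 739 and 528 CPM in the mono-culture, so that replicates 1 to 3 of clone K lay below and replicate 4 within the mono-culture's range. Its log2 fold change was -0.43 (SE 0.15, adjusted p = 0.037), and -0.69 (SE 0.10, adjusted p = 4.3e-05) without the libraries numbered 4. The call with all libraries was lost on leaving out any one of replicates 1 to 3 of either group.

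Over the mean of the 7 clones the direction of the members' calls depended on the libraries. The count was 12 of 83 higher, against 24.3% of all genes, and 1 lower, against 24.9%, with a median of 0.16. Without the libraries numbered 4 it was 5 higher and 9 lower, with a median of -0.01. Both are smaller shares than the 24.3% and 24.9% of all genes in the fit to all libraries. Leaving out mono-culture replicate 4 alone left 4 higher, and replicate 1 alone 7. In those fits 42.9% and 42% of all genes were called in either direction. Rpl8 was one of those that rose (0.43, SE 0.11, adjusted p = 0.0020), and it did so without the libraries numbered 4 as well (0.27, SE 0.08, adjusted p = 0.0055). Rpl7l1 fell by 0.25 (log2, SE 0.07, adjusted p = 0.0043). Rps28 (log2 fold change -0.11, adjusted p = 0.38) and Rpl36 (-0.06, adjusted p = 0.77) were the next lowest and did not pass. Both fell once the libraries numbered 4 were left out, by 0.25 (adjusted p = 0.0046) and 0.29 (adjusted p = 0.0073), as did Rpl10 (by 0.25, adjusted p = 0.012) and Rpl11 (by 0.24, adjusted p = 0.0046). Rpl22, Rpl36a, Rplp0 and Rplp1 lay within 0.05 of 0 with all libraries. Over the members, log2 gene length and log2 fold change had a Pearson r of -0.0035 (n = 83 genes, which share libraries), given as a description.

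**Figure D4:**
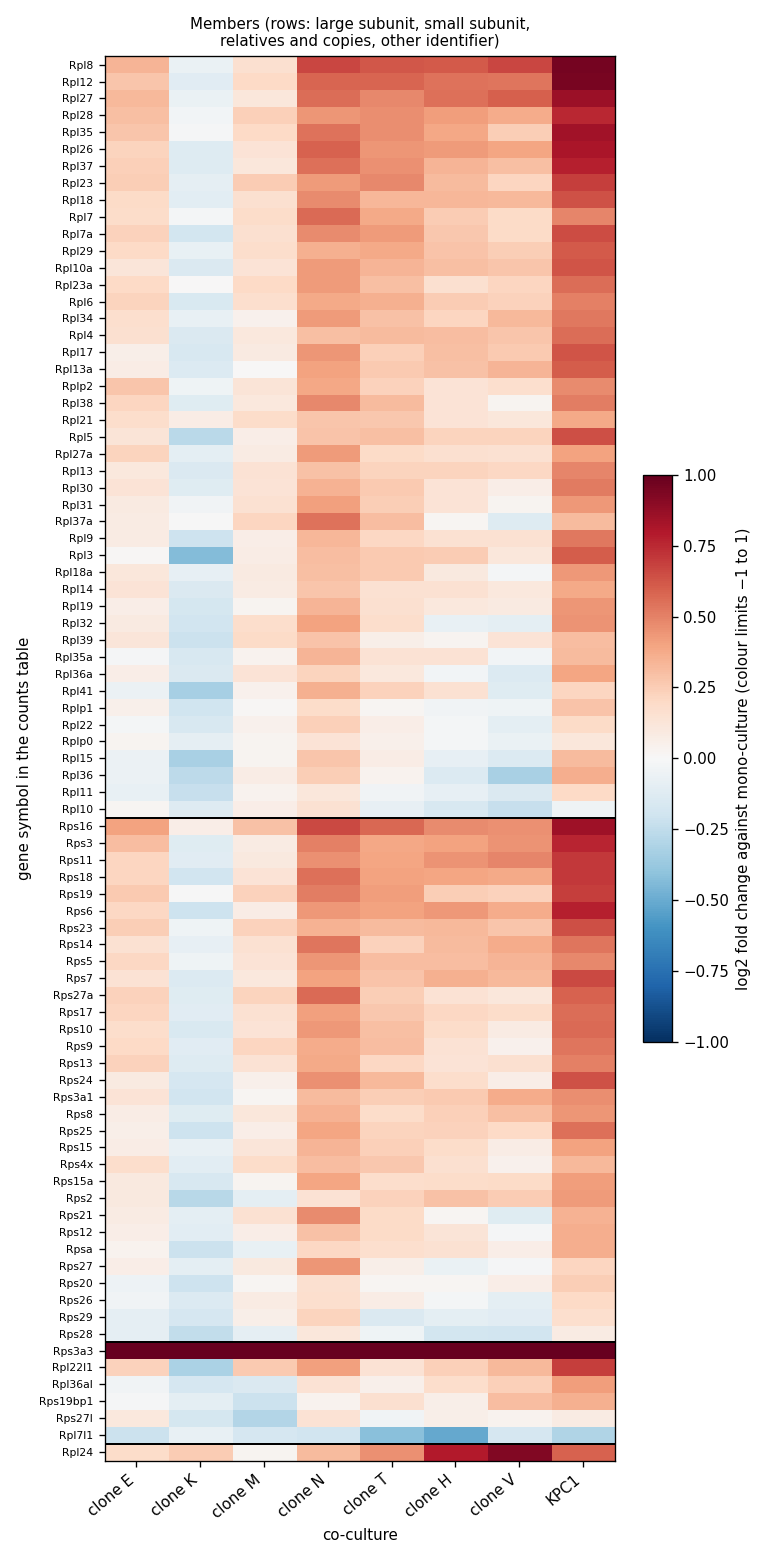
Log2 fold change against mono-culture (colour, limited to -1 to 1) of each of the 83 members (rows) in each of the 8 co-cultures (columns), fitted to all 36 libraries. The clone K column is mostly below 0, with 5 of 83 members above. Every other column is mostly above 0, from 63 of 83 with clone V to 82 with clone N, and Rps3a3 is above 0 in all 8.

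An F-test over the 7 clones asked whether any clone differed from any other. It called 37 of 83 members, against 67.5% of all genes tested, and without the libraries numbered 4 it called 74, against 67.4%. The members' share was thus below that of all genes in the first fit and above it in the second. Leaving out clone K replicate 2 or replicate 1 alone left 18 and 20, where 63.9% and 65% of all genes were called. After the row named Rpl24, the smallest p-values belonged to Rpl8 (F = 7.89, adjusted p = 9.3e-05), Rps2 (F = 7.78, adjusted p = 0.00010), Rpl3 (F = 5.44, adjusted p = 0.0013) and Rpl7l1 (F = 5.14, adjusted p = 0.0019). Rpl8 was lowest with clone K, at 486, 465, 551 and 646 CPM, and next with clone M, at 590, 533, 666 and 715 CPM. It was 677, 652, 738 and 767 CPM with clone E and 815, 876, 825 and 943 CPM with clone T. Clone M overlapped clones K and E, which did not overlap each other, and clones T, H, V and N overlapped one another. Rps2 was 911, 805, 993 and 1106 CPM with clone K, below all libraries of clones E, N, T, H and V. With clone H it was 1396, 1362, 1425 and 1467 CPM and rose against the mono-culture by 0.29 (log2, SE 0.10, adjusted p = 0.019), a call lost without the libraries numbered 4 (0.22, SE 0.12, adjusted p = 0.13).

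Of the relatives, Rpl7l1 fell with clones H and T and KPC1, where most core members lay above 0 in the fit to all libraries. Without the libraries numbered 4, core members with clone H split: 22 of 45 large-subunit and 16 of 31 small-subunit genes lay above 0. The Rpl7l1 protein resembles Rpl7 and takes part in early assembly of the large subunit. It lies at chr17:46773907-46782672 on the minus strand with 7 exon blocks. It was at 89.2, 93.9, 84.1 and 85.9 CPM in the mono-culture and at 56.5, 62.2, 59.6 and 69.7 CPM with clone H, with no overlap (log2 fold change -0.51, SE 0.10, adjusted p = 4.95e-05). With clone T it was at 68.3, 65.4, 63.4 and 67.0 CPM, also below the mono-culture (-0.42, SE 0.10, adjusted p = 0.00056). With KPC1 it was at 64.8, 69.9, 66.6 and 84.9 CPM (-0.30, SE 0.10, adjusted p = 0.0074), where replicate 4 came within the mono-culture's range. These values were -0.59, -0.45 and -0.42 without the libraries numbered 4, each still called. With clone K it stayed at 80.4 to 86.8 CPM. Its partner Rpl7 rose by 0.49 in KPC1 co-culture (log2, SE 0.16, adjusted p = 0.0084), but did not pass without the libraries numbered 4 (0.23, adjusted p = 0.062). Rpl22l1, which had only 3.80 to 14.3 CPM, rose by 0.69 in KPC1 co-culture (log2, SE 0.23, adjusted p = 0.011) and did not pass without the libraries numbered 4 (0.42, adjusted p = 0.17).

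Rps3a3 had the highest log2 fold change of all members in each of the 8 co-cultures. It is a processed pseudogene, an mRNA copied back into the genome, of 1 exon and 795 bases at chr13:108670603-108671397 on the plus strand. Aligned to the transcript of its parent Rps3a1, it had 786 identical bases, 9 mismatches and no gap (98.9% identity), and 31.4% of its 76-base words, the read length, also occurred in Rps3a1. Its reads can therefore be shared with Rps3a1, and its values are uncertain. It was at 3.74, 3.57, 3.19 and 2.15 CPM in the mono-culture and at 57.8, 31.8, 47.3 and 59.6 CPM with KPC1 (log2 fold change 3.96, SE 0.55, adjusted p = 4.7e-07). All 4 KPC1 libraries lay far above the mono-culture.

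The clones spread widely in Rps3a3. With clone T it was at 41.8, 27.8, 29.4 and 43.8 CPM and with clone N at 22.5, 32.8, 31.5 and 47.6 CPM, again above the mono-culture throughout. With clone K it was at 4.57, 2.79, 16.8 and 17.4 CPM and with clone M at 7.01, 3.58, 15.8 and 15.1 CPM, where replicate 2 of each lay in the mono-culture's range. The summed epithelial markers in replicates 1 to 4 were 54.5, 20.01, 256 and 315 CPM with clone K and 149, 56.3, 563 and 295 CPM with clone M. They were low in the same libraries as Rps3a3, and their part in its level was not tested. The adjusted p of 0.021 with clone K and 0.020 with clone M became 0.18 and 0.14 without the libraries numbered 4, and both calls were also lost without mono-culture replicate 4 or without replicate 3 or 4 of the clone. Of 64 tested rows whose ribosomal symbols contain -ps, 24 were higher in KPC1 co-culture, not far above the 30.5% of all genes, and 0 lower by edgeR (median 0.53). The count was 12 of 62 without the libraries numbered 4 (median 0.31), against 29.3% of all genes.

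The row named Rpl24 carries ENSMUSG00000022601, which GENCODE vM21 gives as Zbtb11 (chr16:55973883-56008913, +), so its counts are not those of a ribosomal protein gene. It was at 35.04 to 40.1 CPM in the mono-culture, 55.4 to 72.9 CPM with clone H and 55.6 to 89.6 CPM with clone V, and led the F-test (F = 20.6). The gene next to it, which GENCODE gives as Rpl24 (chr16:55966275-55971435, +), stands in capitals as RPL24 with a mean count of 29.25 and was not chosen by the rule. Of its exon bases, 47.0% are overlapped on the same strand by Gm28037. Among the members, 28 shared exon bases with another gene on the same strand, over 20% of the exon bases in Rpl13a, Rpl36al and Rps10. How reads on shared bases were counted is not given, so these counts may have been affected.

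Genes that build or serve the ribosome were counted beside the members. Of 40 ribosome biogenesis genes (processing factors and RNA polymerase I regulators), 37 were higher and 1 lower in KPC1 co-culture (median 0.86), and 39 and 1 without the libraries numbered 4 (median 0.96). Of all genes tested, 30.5% were higher and 28.5% lower with all libraries, and 29.3% were higher without those numbered 4. With clones H, T and V the counts were 38, 36 and 39 higher (medians 0.67, 0.67 and 0.92), with 1 lower in each. Of all genes, 27.8%, 25% and 29.4% were higher with these clones. With clone N 11 and with clone E 21 were higher, while with clones K and M 2 and 1 were. The shares of all genes that were higher were 19.7% (N), 16.5% (E), 10.4% (K) and 12.2% (M). Without the libraries numbered 4, clones H, T and V had 39, 38 and 39 higher, beside 27.8%, 25% and 29.4% of all genes in the fit to all libraries. Clone E then had 20, clone N 16, clone K 8 and clone M 2. Without those libraries 29.2% (E), 34.4% (N), 21.1% (K), 20.8% (M) and 56.7% (V) of all genes were called in either direction. In clones H and V, then, most biogenesis genes rose beside members' medians of 0.18. Over the mean of the 7 clones 32 were higher, against 24.3% of all genes. The highest were Wdr75, a factor for transcription of ribosomal RNA (0.97), and Gnl3, the nucleolar protein nucleostemin (0.78). The gene that fell was Ubtf, which binds ribosomal DNA for RNA polymerase I (log2 fold change -0.36). Bop1, of the large-subunit processing complex, was next lowest at 0.11.

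Other mRNAs known for TOP tracts were listed beside them. Of 21 elongation factors and other TOP genes, 16 were higher and 0 lower by edgeR in KPC1 co-culture (median 0.48), and 13 were higher without the libraries numbered 4 (median 0.29). Of all genes, 30.5% were higher and 28.5% lower, and 29.3% were higher without those libraries. With clone K 0 were higher and 4 lower (median -0.22), and 11 lower without the libraries numbered 4. Of all genes with clone K, 10.4% were higher and 8.69% lower, and 10.2% were lower without those libraries. Over the mean of the clones 6 were higher, against 24.3% of all genes (median 0.14), or 1 without the libraries numbered 4 (median 0.02). The snoRNA host Snhg12 (0.47) and the initiation factor subunit Eif3k (0.40) were highest and Eif3e (-0.16) and Hnrnpa1 (-0.07) lowest. Of 17 genes of the mTORC1 route to TOP translation, 7 were higher and 4 lower in KPC1 co-culture, and 10 and 4 without the libraries numbered 4, beside 30.5% and 28.5% of all genes in the fit to all libraries. Over the mean of the clones Deptor (0.93), an mTOR inhibitor, and Rheb (0.46), its activator, were highest and Tsc1 (-0.33) and Mlst8 (-0.27) lowest.

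Genes of the mitochondrial ribosome, a separate machine, split. Of 75 tested, 19 were higher and 18 lower in KPC1 co-culture (median -0.03), shares no larger than the 30.5% and 28.5% of all genes. In the fit without the libraries numbered 4, 12 were higher and 23 lower (median -0.10), where 29.3% of all genes were higher. With all libraries 8 were higher and 22 lower over the mean of the clones (median -0.07), against 24.3% and 24.9% of all genes. The highest there were Mrpl22 (0.47) and Mrpl38 (0.45) and the lowest Mrpl54 (-0.85) and Mrpl23 (-0.83). The members' fold changes were also tighter: their interquartile range was 0.09 to 0.27 over the comparisons, against 0.44 to 0.99 for all genes. The spread between libraries of a group was not smaller. Its median SD in log2 CPM was 0.225 for the members, 0.223 for all genes tested and 0.156 for other abundant genes (at or above the members' 5th percentile).

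**Figure D5:**
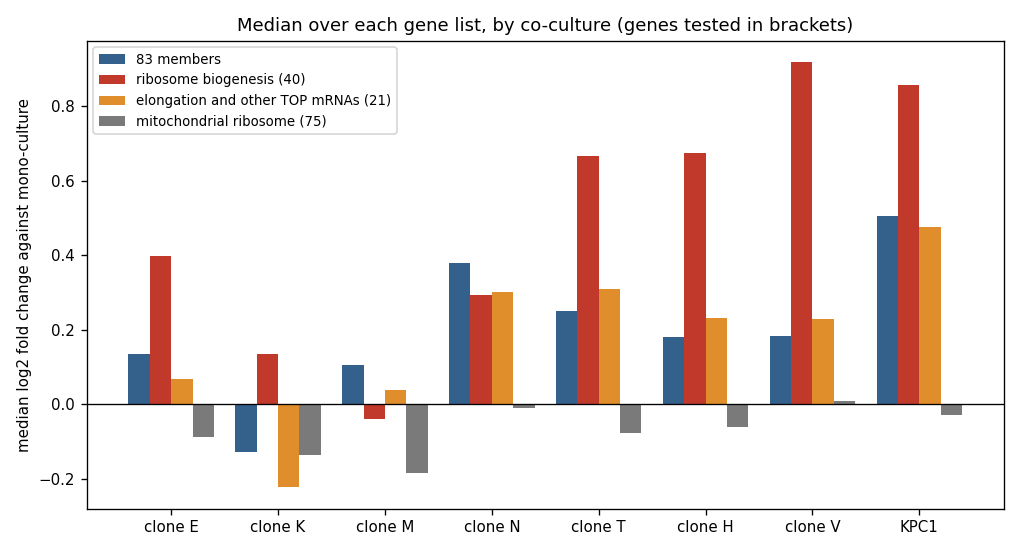
Median log2 fold change against mono-culture (y axis) of the 83 members, 40 ribosome biogenesis genes, 21 elongation and TOP genes and 75 mitochondrial ribosome genes in each of the 8 co-cultures (x axis). The biogenesis median reaches 0.92 with clone V where the members' median is 0.18, and in KPC1 co-culture both are at 0.50 or above.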

How the data were processed

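The authors deposited whole-number read counts for 39017 genes in 36 libraries, and RPKM, which divides counts by gene length and library total. The submitters' processing notes name STAR, featureCounts, edgeR and mm10; versions, roles, annotation and the strand setting of counting are not given in the sources used here. Poly(A) RNA (200 ng, 14 cycles) was read as 76-base pairs. Counts were fitted over all 9 groups with edgeR 4.0.16 (R 4.3.3): TMM scaling, a filter on low counts (14439 genes, all 83 members among them), a robust quasi-likelihood test, and Benjamini-Hochberg adjustment over all genes with a threshold of 0.05. CPM are scaled by TMM. The fit was tested on simulated data. DESeq2 1.42.0, other scalings, filters, a replicate term and leaving out libraries were alternatives. Named members were the extremes of each comparison, the smallest F-test p-values, the extremes of RPKM, and a set by role. The members and lists were chosen with earlier results of these data known. All comparisons with mono-culture share its 4 libraries. Coordinates are from GENCODE vM21 (GRCm38), promoter windows from RefSeq. A result on 1 listed gene group is not reported here.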

Additional observations from a re-analysis of the deposited data

Results flagged for a closer look

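In KPC1 co-culture, replicate 4 lay far from the other libraries, with 6.55% of counts in the members (gap over range 0.968). For Rps2, replicate 1 of clone E (1380 CPM, gap over range 0.841) and replicate 4 of clone N (1406 CPM, gap over range 0.832) lay far above the others of their group. These are 3 of 54 sets of 4 libraries examined, and chance marks about 1 set in 20. By edgeR with all libraries, 37 members differed among the 7 clones in the F-test, a share (44.6%) below the 67.5% of all genes. Without the libraries numbered 4 the share was 89.2%, above the 67.4% of all genes. Between KPC1 and the mean of the 7 clones 57 differed, all higher with KPC1 (68.7%, against 22.3% of all genes). Each is a test of the difference itself.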

How the results depend on the processing

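Counts are members called in either direction by comparison with mono-culture unless named. DESeq2 gave 2 with clone E. With no scaling beyond the library total there were 8 with clone H, 22 with N, 9 with T, 7 with V, 6 over the mean of the clones and 19 in the F-test, and log2 values over the mean of the clones turned to -0.0254 (Rpl36al), -0.0293 (Rps19bp1), -0.0535 (Rpl22), -0.0299 (Rpl36a) and -0.0525 (Rplp0). The shares of all genes called there were 53% (H), 39.2% (N), 49.4% (T), 57.3% (V), 48.6% (mean) and 65.9% (F-test). TMM without the members turned Rplp1 to 0.0113, and no filter turned it to 0.00741 and left 1 call with clone K. A minimum of 10 counts in every library left 12 with clone H, with Rpl22 at -0.00631 and Rplp0 at -0.00377. A replicate block gave 7 with clone E, 4 with K, 27 with V, 26 over the mean and 70 in the F-test, with Rpl22 at -0.0211 and Rplp0 at -0.00336. In that fit 37% (E), 24.5% (K), 62% (V), 53.2% (mean) and 74.7% (F-test) of all genes were called. Same-number samples did not all deviate together: 5 of 32 correlations with the mono-culture were over 0.1, and 63 of 112 among co-cultures, where some groups, such as clones E and K, passed 0.1 at all 4 numbers. The labels do not say what a number marks, so the block was not used for the main values. Without the 9 libraries numbered 4 (chosen after seeing the data) there were 2 with clone E, 57 with K, 0 with M by edgeR, 7 with N, 26 with V and 74 in the F-test. The shares of all genes called there were 29.2% (E), 21.1% (K), 20.8% (M), 34.4% (N), 56.7% (V) and 67.4% (F-test). The members' medians were 0.11 (N), 0.0217 (V) and 0.26 (KPC1). Over the mean of the clones, values then turned to -0.0605 (Rpl36al), -0.0992 (Rpl3), -0.19 (Rpl22), -0.16 (Rpl36a), -0.11 (Rpl39), -0.0401 (Rps4x), -0.15 (Rps27), -0.12 (Rplp0) and -0.0403 (Rpl5). Leaving out 1 library at a time gave 1 to 5 (E), 9 to 22 (H), 0 to 3 (K), 0 to 1 (M), 7 to 55 (N; 7 without its replicate 4), 12 to 28 (T), 8 to 22 (V), 46 to 67 (KPC1), 5 to 17 (mean), 18 to 54 (F-test; 18 without clone K replicate 2) and 21 to 68 (KPC1 against the clones; 21 without KPC1 replicate 4), and log2 ranges over the mean of -0.0885 to 0.0492 (Rpl22), -0.00401 to 0.151 (Rpl3), -0.0539 to 0.0619 (Rpl36a), -0.0527 to 0.0526 (Rplp0), -0.0533 to 0.0571 (Rplp1), -0.0145 to 0.127 (Rps27) and -0.0836 to 0.0141 (Rps27l). The causes were not tested. KPC1 kept a positive median under every alternative run.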
